A study of Mus musculus with 5 samples.

Results

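Expression of 10 epithelial antimicrobial and Reg family genes was examined in AOM/DSS-induced mouse colon tumors. The genes were Lyz1, Ang4, Itln1, Retnlb, Reg4, Reg3b, Reg3g, Lypd8, Mptx1 and Lcn2. They were listed by symbol with values of these same samples in view, so the comparison of the groups is given for them as a description without a p-value. Each of the 10 symbols matched 1 gene among the 52143 genes of the deposited table, and all 10 reached at least 1 TPM in at least 2 samples. TPM is an abundance relative to all RNA of a sample and corrected for transcript length. The list was drawn up in the knowledge that Lyz1 was nearly absent from 1 Control tumor.

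Tumors came from female mice that were 8 weeks of age at the start and were collected on day 87. The Control group (Villin1-Cre-ERT) carried a tamoxifen-inducible Cre recombinase under the Villin1 promoter, which is active in the epithelium of the intestine. The SIGLEC12 group (SIGLEC12-Villin1-Cre-ERT) carried that same recombinase and a heterozygous knock-in of human SIGLEC12 at ROSA26, behind a CAG promoter and a floxed EGFP stop cassette that the recombinase removes. Human SIGLEC12 encodes Siglec-XII, a protein of the Siglec family that has lost the binding of sialic acids in humans and that mice lack. Both groups received 5 days of tamoxifen (10 mg/ml), 10 mg/kg azoxymethane (AOM, a carcinogen) and 4 cycles of 2.0% dextran sulfate sodium (DSS, which damages the colon lining) for 5 days each, with 14 days of recovery between cycles. Control was represented by 2 tumors, numbered replicates 1 and 4, and SIGLEC12 by 3 tumors, numbered replicates 2, 3 and 4. No untreated colon entered this comparison.

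The intestinal epithelium keeps bacteria at a distance with proteins that it secretes into mucus. Paneth cells at the crypt base of the small intestine release lysozyme, alpha-defensins and angiogenins, and are normally scarce in the mouse colon, where goblet cells and deep crypt secretory cells make many of the bacteria-binding proteins. Several of these genes, Reg3b and Reg3g above all, are induced by microbes through interleukin-22 and the transcription factor STAT3, and Lcn2 is induced in inflamed epithelium and stored in neutrophils.

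Sequences of the closest relatives are shown because they decide how far reads can be told apart. Lyz1, the lysozyme of Paneth cells, and Lyz2, the lysozyme of macrophages and neutrophils, share 422 of 444 coding bases (95%), and 34.2% of the 31-base words of the Lyz1 transcript also occur in Lyz2. The first 120 coding bases of both, from GENCODE M21 on GRCm38, differ at 11 positions, which are in capitals.
Lyz1: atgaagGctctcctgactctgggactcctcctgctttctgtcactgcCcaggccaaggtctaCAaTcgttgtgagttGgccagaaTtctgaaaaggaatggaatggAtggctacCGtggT
Lyz2: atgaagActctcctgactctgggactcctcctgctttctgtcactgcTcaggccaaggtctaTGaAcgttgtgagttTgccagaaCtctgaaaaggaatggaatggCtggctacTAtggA
Their levels are therefore uncertain where reads fall in shared stretches. Mptx1 shared 25% of its words with Mptx2, Ang4 shared 13.8% with other angiogenin genes, and Itln1 shared 3.8% with Gm9765. The other 6 genes shared less than 1% of their words with any gene.

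Reg3b and Reg3g, C-type lectins that bind bacterial cell walls, had 76% identical positions over their aligned coding sequences, but shared only 5 words of 31 bases. The 150 bases before each RefSeq start site are shown because both genes were higher in Control replicate 4 than in every SIGLEC12 sample. The windows come from RefSeq on GRCm38.p6, at chr6:78370735-78370884 on the plus strand for Reg3b and chr6:78468875-78469024 on the minus strand for Reg3g. The Reg3b window lies inside the gene as GENCODE M21 bounds it, since its most upstream transcript there starts at 78370657. Capitals mark matches to TTCNNNGAA, the STAT motif, and to TATAAA, the TATA box.
Reg3b: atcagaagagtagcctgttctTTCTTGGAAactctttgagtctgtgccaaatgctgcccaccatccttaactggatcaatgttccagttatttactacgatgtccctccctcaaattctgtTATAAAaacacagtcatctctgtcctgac
Reg3g: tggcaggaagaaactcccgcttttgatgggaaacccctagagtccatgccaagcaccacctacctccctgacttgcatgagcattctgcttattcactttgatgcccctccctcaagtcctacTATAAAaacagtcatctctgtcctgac
Over 152 aligned columns the windows were identical at 102 (67.1%). Both held a TATA box, at 29 bases before the RefSeq start in Reg3b and 27 in Reg3g, and the Reg3b window held a STAT motif at 129 bases. Searched on both strands over the 250 bases before the start, the STAT motif was present in Reg3b and Ang4 among the 9 genes with a promoter in the table, against 7.02% of 32851 promoter windows. The letters of the TATA box were present in Reg3b, Reg3g and Mptx1, against 12.4% of all windows. In Mptx1 they were on the opposite strand only, read TTTATA, and lay 198 and 82 bases before the start. A further match in Reg3g, at 161 bases, was also on the opposite strand. TTTATG, the CDX motif, was found in Reg3b, Itln1 and Lcn2, against 10.8%, and none of these matches overlapped the letters TATAAA. In Itln1 and Lcn2 the match was on the opposite strand and read CATAAA, which differs from TATAAA at its first base. It lay 29 bases before the start in Itln1 and 60 in Lcn2. The NF-kB motif was found in 0 of the 9, against 1.21%. Such matches describe the letters only.

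One sample stood apart. In Control replicate 1, 7947 genes reached 1 TPM, against 9532 to 10090 in the other 4 samples. Protein-coding genes took 5.70% and 6.73% of the total TPM in Control and 8.75% to 9.72% in SIGLEC12, and values rescaled to an equal protein-coding total are therefore given beside the deposited ones. The colon epithelium label was checked with 13 markers of columnar epithelium, all of which were detected. Their summed TPM was 365 in Control replicate 1, 1078 in Control replicate 4 and 1193 to 1816 in SIGLEC12. As deposited, 11 of the 13 were lowest in Control replicate 1, where 70.8% of all genes tested were lowest too. The mean log2(TPM + 1) of the 13 markers was 4.11 and 5.48 in Control and 5.46, 5.33 and 5.91 in SIGLEC12, so that the groups overlapped. The SIGLEC12 mean was higher for 11 of the 13 and lower for 2, Slc26a3 and Car1. Of all 10338 genes tested, 87.2% had a higher mean in SIGLEC12, so this count does not set the markers apart. Of 9 markers of squamous epithelium, 6 were highest in Control replicate 1, and their sum was 2719 there, 637 in Control replicate 4 and 435 to 979 in SIGLEC12. Human SIGLEC12 matched 0 gene symbols, so the knock-in was not checked by its own expression. In tumor pieces, fewer cells of a type and less RNA per cell cannot be told apart. The part of cell composition in the results below was not tested.

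Levels of the 10 genes spanned a wide range. Averaged over all 5 samples, the mean TPM was 777 for Lypd8, 44.3 for Mptx1, 23.2 for Reg4, 19.4 for Lyz1 and 8.65 for Lcn2. It was 4.47 for Reg3g, 4.06 for Ang4, 3.44 for Retnlb, 2.14 for Itln1 and 0.79 for Reg3b. The lowest Lypd8 sample (242) lay above the highest Mptx1 sample (91.3), whereas the sample ranges of every other pair of neighbours in this order overlapped. Lypd8 alone made up 81.0% to 90.5% of the summed TPM of the 10 genes. Together they took 0.524% of the protein-coding TPM in Control replicate 1, 1.21% in Control replicate 4, and 1.48%, 1.45% and 0.764% in SIGLEC12 replicates 2, 3 and 4. The lowest SIGLEC12 share was thus below that of Control replicate 4.

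**Figure D1:**
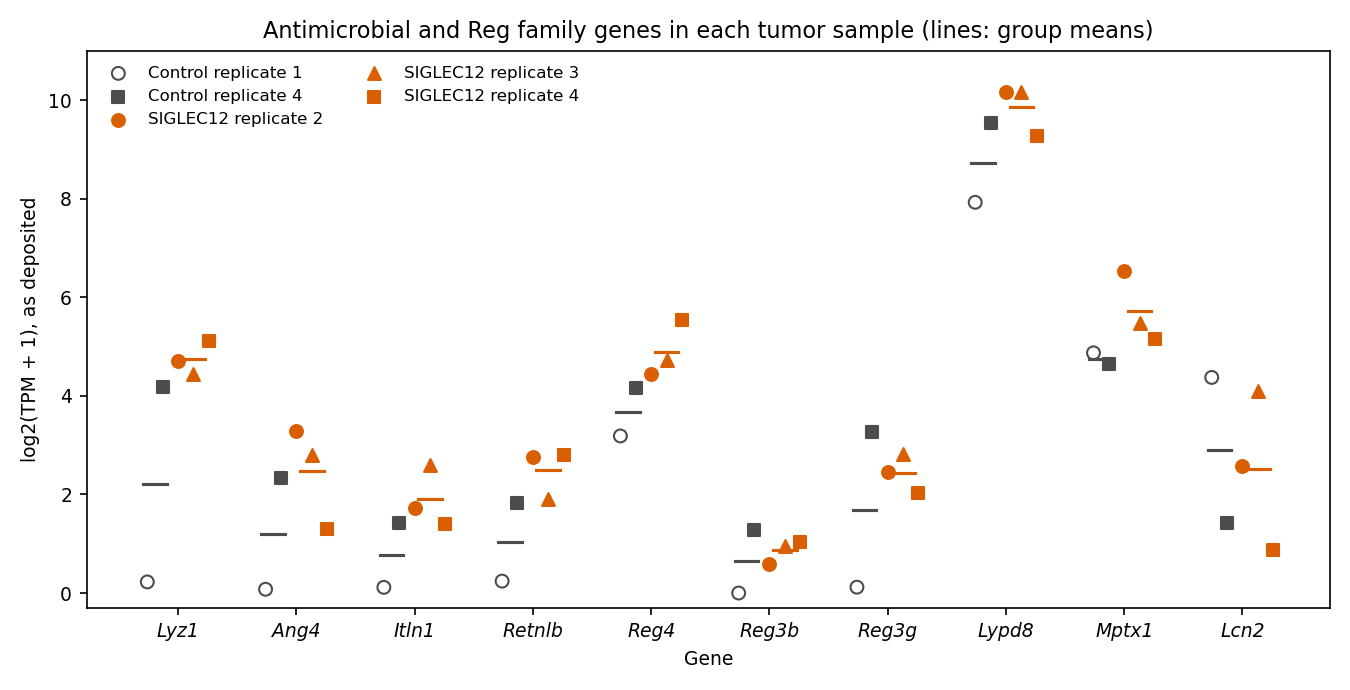
Level of each gene in each tumor as log2(TPM + 1), with open and filled grey symbols for Control, orange symbols for SIGLEC12 and short lines for group means. Control replicate 1 (open circles) is lowest for 8 of the 10 genes, and is highest of the 5 samples for Lcn2.

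Of the 10 genes, Lyz1 had the largest difference between group means, and it was listed for its low value in Control replicate 1. On the log2(TPM + 1) scale its level was 0.23 in Control replicate 1, 4.19 in Control replicate 4, and 4.71, 4.45 and 5.11 in SIGLEC12 replicates 2, 3 and 4. All tumors but Control replicate 1 thus lay within 1 log2 unit of each other. Among protein-coding genes Lyz1 ranked at 11622 in Control replicate 1 and between 413 and 602 in the other samples. Below 1 TPM in Control replicate 1 and at 10 TPM or more in all 4 others were 2 genes, Lyz1 and Pla2g2a, which GENCODE annotates as a polymorphic pseudogene. The same count was 1 for Control replicate 4 (the small nuclear RNA Rnu5g) and 0 for each SIGLEC12 sample. Lyz1 was on the list for this level, so the count is a description. The Control mean was 2.21 ± 2.80 (SD, n = 2) and the SIGLEC12 mean 4.76 ± 0.33 (SD, n = 3). Their difference of 2.55 (SE 1.04, from the limma fit) was smaller than the 3.96 between the Control samples, and was 2.21 after rescaling. Against Control replicate 4 alone it was 0.57, and 0.16 after rescaling.

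Lyz2 did not share this pattern. Its level was 2.38 and 1.39 in Control replicates 1 and 4, and 3.20, 3.86 and 1.83 in SIGLEC12 replicates 2, 3 and 4, so that the groups overlapped and Control replicate 1 held the third highest value. Its difference of 1.08 did not pass the test (limma, Benjamini-Hochberg adjusted p = 0.230). The 9 macrophage markers, Lyz2 among them, summed to 11.6 and 5.04 TPM in Control and to 22.5, 24.3 and 6.16 in SIGLEC12. The other 8 without Lyz2 summed to 7.37 and 3.43 TPM in Control and to 14.3, 10.8 and 3.60 in SIGLEC12. Markers of T cells summed to at most 1.19 TPM and those of B and plasma cells to between 0.427 and 10.2. The genes whose profile over the 5 samples lay nearest to Lyz1, of 2692 compared, were Slpi, Clca4b, Gpx2, Calm4 and Mmp13, at root mean square distances of 0.52, 0.61, 0.66, 0.69 and 0.70 log2 units. Slpi, a secreted inhibitor of serine proteases, was at 1.43 in Control replicate 1 and at 4.36 to 5.19 elsewhere. Clca4b was at 1.01 in Control replicate 1 and at 3.93 to 5.28 elsewhere. Mmp13, a collagenase, was at 0.06 in Control replicate 1 and at 2.09 to 3.45 elsewhere. Distances were taken over 5 samples only, and Control replicate 1 was the lowest sample for all 5 of these genes.

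**Figure D2:**
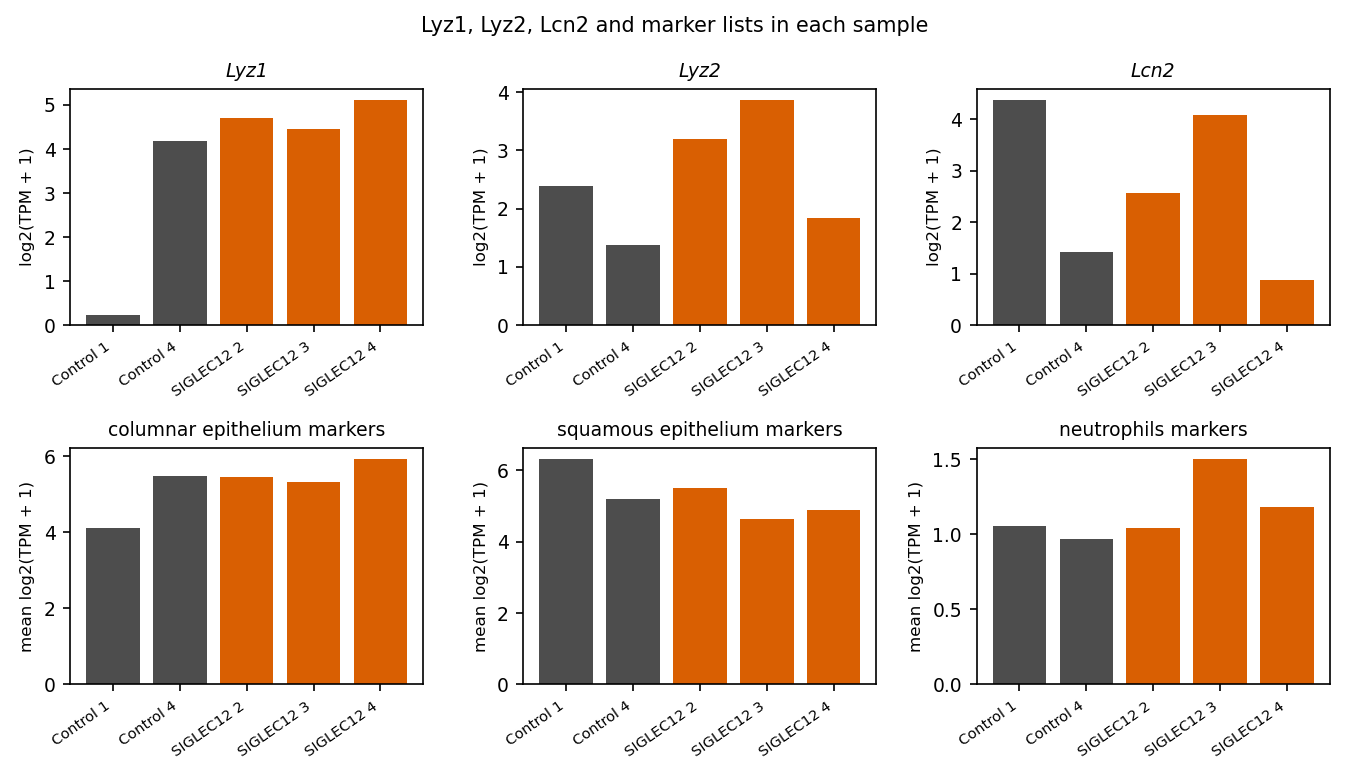
Bars show log2(TPM + 1) of Lyz1, Lyz2 and Lcn2 (top) and the mean log2(TPM + 1) of 3 marker lists (bottom) in each tumor, grey for Control and orange for SIGLEC12, with 1 sample per bar. Lyz1 is near 0 in Control replicate 1 alone, where the columnar epithelium mean is lowest (4.11, against 5.33 to 5.91) and the squamous mean highest (6.31, against 4.64 to 5.51).

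Ang4, a ribonuclease of Paneth and goblet cells with antibacterial activity, was at 0.08 and 2.33 in Control and at 3.29, 2.80 and 1.31 in SIGLEC12. Here SIGLEC12 replicate 4 lay below Control replicate 4, and the groups overlapped. The difference of means was 1.26 (SE 0.79), and 0.13 against Control replicate 4 alone. Itln1, an intelectin that binds sugars of microbial surfaces, was at 0.12 and 1.41 in Control and at 1.72, 2.59 and 1.40 in SIGLEC12. Its groups overlapped slightly, with a difference of 1.14 (SE 0.48) that was 0.49 against Control replicate 4 alone.

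Retnlb and Reg4 were higher in all 3 SIGLEC12 samples than in both Control samples, as were 54.1% of all genes tested. Retnlb encodes RELM-beta, a goblet cell product, and was at 0.24 and 1.83 in Control and at 2.77, 1.91 and 2.79 in SIGLEC12. SIGLEC12 replicate 3 exceeded Control replicate 4 by less than 0.1. The difference of means was 1.46 (SE 0.50), and 0.66 against Control replicate 4. After rescaling, the Retnlb groups overlapped, at 0.33 and 2.00 in Control and 2.64, 1.81 and 2.55 in SIGLEC12. Reg4, a lectin of deep crypt secretory and enteroendocrine cells, was at 3.19 and 4.15 in Control and at 4.44, 4.72 and 5.53 in SIGLEC12. Its difference was 1.23 (SE 0.42), 0.71 after rescaling and 0.75 against Control replicate 4. After rescaling, the values were 3.62 and 4.38 in Control and 4.30, 4.59 and 5.25 in SIGLEC12, so that the groups overlapped. By the same measure of likeness, and named after the values were seen, the genes nearest to Reg4 were Agpat2, Galnt3 and Agr2, at 0.05, 0.07 and 0.09.

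Reg3b and Reg3g had their highest level in Control replicate 4. Reg3b was listed at 0 in Control replicate 1 and was 1.28 in Control replicate 4, against 0.59, 0.96 and 1.04 in SIGLEC12. Reg3g was at 0.12 and 3.26 in Control, against 2.45, 2.83 and 2.02 in SIGLEC12. Both genes were thus lowest in one Control tumor and highest in the other, with the SIGLEC12 tumors between. The differences of means were 0.22 (SE 0.39) for Reg3b and 0.74 (SE 0.84) for Reg3g, smaller than the gaps of 1.28 and 3.15 between both Control tumors. Against Control replicate 4 alone they were -0.42 and -0.83, so the direction turned. Of the other Reg genes, Reg1 was at most 0.05, Reg3a and Reg3d at most 0.03, and Reg2 between 0.48 and 0.67 in the 5 samples. Reg4 and Reg3g thus had the highest mean TPM of the Reg genes.

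Lypd8, a membrane-anchored protein of colonocytes that binds bacterial flagella, was the most abundant member in every sample. It was at 7.93 and 9.53 in Control and at 10.16, 10.16 and 9.27 in SIGLEC12, and ranked 19th and 6th among protein-coding genes in Control and 4th, 4th and 10th in SIGLEC12. SIGLEC12 replicate 4 lay below Control replicate 4. The difference of means was 1.14 (SE 0.52), 0.58 after rescaling and 0.33 against Control replicate 4. Without Control replicate 1 and after rescaling it was -0.10. Its profile lay 0.30 from that of Itln1 and 0.41 from that of Ang4, the closest pairs among the 10 genes, and Tm4sf20, named after its value was seen, lay at 0.12.

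Mptx1, a pentraxin of the intestinal mucosa, did not have its lowest value in Control replicate 1. It was at 4.87 and 4.64 in Control and at 6.53, 5.47 and 5.16 in SIGLEC12. The groups did not overlap, and 54.1% of all genes tested were higher in that way. The difference of means was 0.97 (SE 0.42), larger than the 0.24 between the Control samples, and it was 1.08 against Control replicate 4 alone. After rescaling it was 0.43, and the groups overlapped, at 5.34 and 4.87 in Control and 6.38, 5.34 and 4.88 in SIGLEC12. SIGLEC12 replicate 2, which had the highest Mptx1, also had the highest summed TPM of 6 fibroblast markers (57.9, against 8.72 to 24.4) and of 5 smooth muscle markers (86.6, against 36.1 to 40.5). The genes nearest to Mptx1, named after their values were seen, were Igfbp7, Sparc, Tagln, Des and Adh1, at 0.17 to 0.30. Stromal share was not tested as a part of the Mptx1 difference. Mptx2 was at most 0.06 in every sample.

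Lcn2, a lipocalin that binds bacterial siderophores, lay farthest in profile from the other 9 genes. It was at 4.37 and 1.42 in Control and at 2.58, 4.09 and 0.87 in SIGLEC12, so that the highest value came from Control replicate 1 and the lowest from SIGLEC12 replicate 4. The difference of means was -0.38 (SE 1.12), and 1.09 against Control replicate 4 alone. Its nearest member was Mptx1 at a distance of 1.48, and its median distance to the other genes was 1.96. The genes nearest to it, named after their values were seen, were Il33 (0.64), S100a8 (0.85), Ly6d (0.90), Krt17 (0.96) and Krt15 (0.96). All of these but S100a8 had their highest level in Control replicate 1. S100a8, a calprotectin subunit of neutrophils and squamous epithelium, was at 3.46 and 2.18 in Control and at 2.49, 4.24 and 2.50 in SIGLEC12. The 10 neutrophil markers summed to 21.8 and 25.3 TPM in Control and to 24.9, 46.1 and 54.0 in SIGLEC12, with Elane at 0 in all samples and 5 of the 10 below 1 TPM throughout. Ly6g made up 44.8 of the 54.0 TPM in SIGLEC12 replicate 4, and the other 9 markers summed to 17.5 and 7.91 TPM in Control and to 9.75, 31.7 and 9.17 in SIGLEC12. Without Ly6g, SIGLEC12 replicate 3 and Control replicate 1, the samples with the highest Lcn2, had the highest sums. In these sums S100a8 and S100a9 stood at 9.99 and 5.73 TPM in Control replicate 1, and at 18.0 and 10.3 in SIGLEC12 replicate 3. S100a8 is also one of the genes nearest to Lcn2, so this likeness of order is partly built in. Ly6g itself was lowest in Control replicate 1 (4.30 TPM) and highest in SIGLEC12 replicate 4, where Lcn2 was lowest. The part of neutrophils or of squamous epithelium in the Lcn2 levels was not tested.

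Across the 10 genes, the mean was higher in SIGLEC12 for 9 and lower for 1, Lcn2. Of all 10338 genes tested, 87.2% had a higher and 12.8% a lower mean in SIGLEC12. The groups did not overlap for 4 genes (Lyz1, Reg4, Retnlb and Mptx1), all higher in SIGLEC12, where 54.1% of all genes tested did so, and for 0 genes in the other direction (1.67% of all genes). After rescaling, the 9 and 1 stood as before (51.1% of all genes were then higher and 48.9% lower), and the groups did not overlap for 0 genes in either direction, against 15.6% higher and 16.8% lower of all genes. At least 2-fold higher means were found for 6 genes and lower ones for 0, against 4.68% and 0.754% of all genes. After rescaling these were 3 and 0, against 0.871% and 2.22%. These numbers describe a list chosen on this contrast. The rescaled differences of the genes not given above were 1.01 for Ang4, 0.91 for Itln1, 1.17 for Retnlb, 0.06 for Reg3b, 0.46 for Reg3g and -0.82 for Lcn2. The median difference was 1.14, where the median over all genes was 0.38, and after rescaling it was 0.65, against 0.01. It was 0.53 without Control replicate 1, and 0.18 when that sample was left out of the rescaled values, a combination chosen after seeing the data. By level, 8 of the 10 genes were lowest in Control replicate 1, both as deposited (70.8% of all genes tested) and after rescaling (35.8%).

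**Figure D3:**
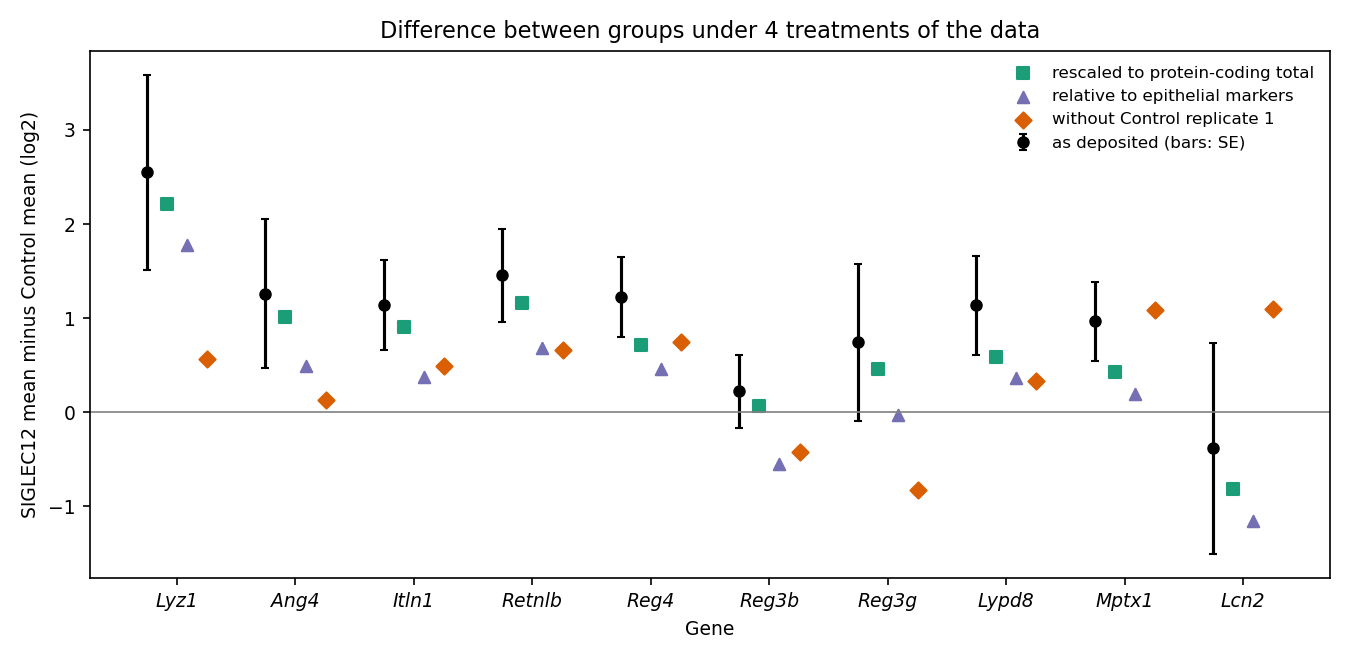
Difference between the SIGLEC12 and Control means in log2 units for each gene, as deposited (black, bars are the SE of the limma fit), rescaled (squares), relative to columnar epithelium markers (triangles) and without Control replicate 1 (diamonds). Reg3b, Reg3g and Lcn2 lie on both sides of 0, while Lyz1 stands at 2.55 with all samples and at 0.57 without Control replicate 1.

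Other genes of this defence were then examined through lists fixed by name, with earlier results of these samples known. Of 85 genes listed, 84 were in the table and 51 passed the filter on low values. With limma and Benjamini-Hochberg adjustment over all 10338 genes, 0 of them passed an adjusted p under 0.05 with a 2-fold difference, as did 0 genes of the whole table, where 3543 had an unadjusted p under 0.05. By an unadjusted p threshold of 0.05 with a 2-fold difference, 7 of the 51 were higher and 0 lower in SIGLEC12, against 3.97% and 0.445% of all genes tested. They were Defa20, Mmp7, Pglyrp1, Saa3, Tff3, Agr2 and Spink4. Defa20 met the filter on low values through SIGLEC12 samples alone, so its place among the 7 is a description. After rescaling 1 was past it, Spink4, against 0.368% of all genes higher and 1.37% lower.

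Paneth cell genes were low or absent in Control replicate 1. Of 16 listed, 6 were tested, of which 2 (Defa20 and Mmp7) were past the unadjusted threshold. All 6 had their lowest level in Control replicate 1, which Control replicate 4 shared for Defa20. As deposited, 70.8% of all genes tested were lowest in Control replicate 1. All 11 alpha-defensin genes were listed at 0 in that sample, against 1 in Control replicate 4 and 4, 2 and 1 in SIGLEC12 replicates 2, 3 and 4. Their summed TPM was 8.55 in Control replicate 4 and 2.04, 5.76 and 6.99 in SIGLEC12, so that the other Control tumor had the highest sum. The alpha-defensins are near-identical copies, and the level of any one is uncertain. Their highest level in any sample was 1.75, in Control replicate 4, so the 11 zeros lie near the floor and are not 11 separate observations. Defa20 was listed at 0 in both Control samples and was at 0.70, 1.21 and 1.13 in SIGLEC12. It met the filter only through SIGLEC12 samples and lay near the floor, so no p-value is given for it. Mmp7, the matrilysin that activates alpha-defensins and is also made by intestinal tumors, was at 0.45 and 2.98 in Control and at 4.06, 5.31 and 2.97 in SIGLEC12 (limma adjusted p = 0.123). Pla2g2a, the secreted phospholipase gene annotated as a polymorphic pseudogene, was at 0.52 in Control replicate 1 and at 3.48 to 4.34 in the other 4 samples. Ang, a relative of Ang4, was at 0.72 and 0.89 in Control and at 1.40, 1.42 and 1.08 in SIGLEC12, and Ang5 was listed at 0 in all samples.

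**Figure D4:**
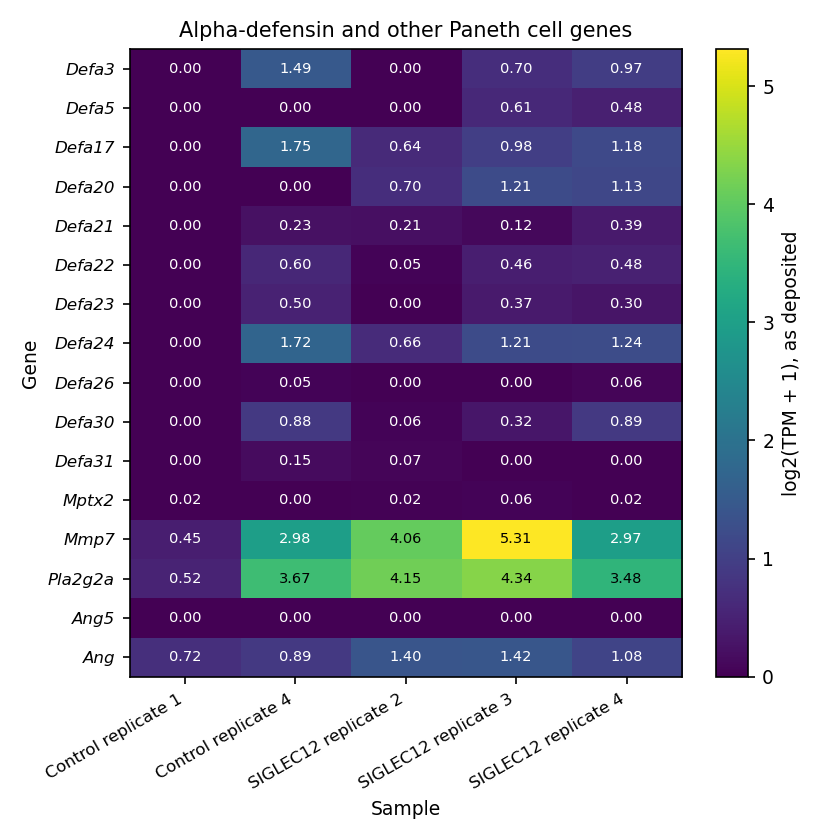
Level of 16 alpha-defensin and other Paneth cell genes (rows) in each tumor (columns) as log2(TPM + 1), printed in each cell and coloured from 0 (dark) to 5.31 (yellow). The 11 alpha-defensin genes are all at 0.00 in Control replicate 1, and Mmp7 and Pla2g2a are at 0.45 and 0.52 there.

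Of 20 tested colon antimicrobial and bacteria-binding genes, 2 were past the unadjusted threshold, both higher, and the median difference was 0.61 as deposited and 0.14 after rescaling. Saa3, a serum amyloid of inflamed tissue, was at 0.13 and 1.38 in Control and at 3.63, 2.50 and 1.64 in SIGLEC12 (limma adjusted p = 0.108). Pglyrp1, a peptidoglycan recognition protein, was at 3.89 and 5.29 in Control and at 5.68 to 6.76 in SIGLEC12 (limma adjusted p = 0.104). Wfdc2, a small secreted antibacterial protein, had a difference of 0.88. Ltf, which encodes the iron-binding lactoferrin, went the other way without passing the test, at 7.63 and 7.68 in Control and at 7.58, 6.95 and 4.24 in SIGLEC12. Retnla, a relative of Retnlb, was at most 0.18 in every sample.

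Genes of cytokine signalling and sensing were examined next. Of 13 tested genes of interleukin-22, interleukin-17 and microbial sensing, 0 passed either threshold. An unadjusted limma p of 0.05 or less was reached by 3 of the 13, where 3543 of all 10338 genes were under 0.05. The median difference of the 13 genes was 0.44 as deposited and 0.07 after rescaling. Il22 itself was listed at 0 in all 5 samples. Its receptor chains Il22ra1 and Il10rb were detected, with differences of 0.47 and 0.88, and the lipoprotein and lipopolysaccharide receptors Tlr2 and Tlr4 had 0.70 and 0.65. These 4 were named because their groups did not overlap as deposited (54.1% of all genes tested were higher in that way), and after rescaling the groups of Il10rb alone among them did not overlap (15.6%). Of 11 tested genes of the secretory lineage, 3 goblet cell products were past the unadjusted threshold, and the median difference was 0.61 as deposited and 0.17 after rescaling. Spink4, a protease inhibitor, was at 5.74 and 7.26 in Control and at 8.07, 8.37 and 8.43 in SIGLEC12, a difference of 1.79 (SE 0.45, limma adjusted p = 0.0974) that was 1.24 after rescaling. Agr2, a protein folding factor for mucin, and Tff3, the trefoil peptide, differed by 1.37 and 1.19. Foxa3, a transcription factor of goblet cells, differed by 0.94. Muc2, the main mucin of the colon, was at 6.74 and 8.47 in Control and at 8.23, 7.32 and 8.34 in SIGLEC12, so that its groups overlapped.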

How the data were processed

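RNA from 5 mouse colon tumors (2 Control, 3 SIGLEC12) was sequenced by the authors, who deposited log2 values for 52143 Ensembl genes. Back-transformed, every column totalled 999999 to 1000001, and the deposited values were therefore read as log2(TPM + 1) over all annotated RNA. Per the labels' processing notes, kallisto 0.45.0 and GRCm38 were used. The study's methods name another kallisto release and a human reference, and a different library kit from the labels. They also describe technical replicate libraries, without saying how these were combined. Sequencing depth is unknown, so counting error could not be given. Whether samples of a group came from separate litters or days is not stated, so the spread is that between these samples. All value columns were mapped to a sample.

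Genes with a TPM of at least 1 in at least 2 samples (10338) were fitted with limma 3.58.1 in R 4.3.3 (lmFit and eBayes with trend) on log2(TPM + 1), without covariates. P-values were two-sided and adjusted by Benjamini-Hochberg. Thresholds were an adjusted p under 0.05, or an unadjusted p of at most 0.05, with at least a 2-fold difference. The fit was tested on simulated data. The members and lists were chosen with earlier results of these data known. For the members no p-value is given, and the SE is that of the fit.

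Named genes were the members, close paralogs, the 5 genes nearest to Lyz1 in profile, and up to 4 genes of each list with the largest difference among those whose groups did not overlap. Distances are root mean squares between profiles centred on their own means, over protein-coding genes averaging 5 TPM or more. Mmp7, Pla2g2a, Rnu5g, Ly6g, S100a8, Muc2 and Il22 were named after their values were seen. Rescaling set the protein-coding TPM of each sample to the mean total. Coordinates, coding sequences and 31-base words came from GENCODE M21, which held 98.45% of the gene identifiers, and promoters from RefSeq. Sequences were compared with Biopython 1.88. On GRCm38, Lyz1 lies on chromosome 10 (117287797 to 117292868), Ang4 on 14 (51763878 to 51773590), Retnlb on 16 (48816856 to 48818892), Reg4 on 3 (98222156 to 98236748), Lypd8 on 11 (58379043 to 58390728) and Lcn2 on 2 (32384633 to 32388252). Itln1 (171518122 to 171535294) and Mptx1 (174330518 to 174332873) lie on chromosome 1, and Reg3b (78370657 to 78373466) and Reg3g (78466269 to 78468872) on chromosome 6. Alternatives were another pseudocount, filter or scaling, and leaving out each sample. A further Control mouse that the series description implies was not analysed here.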

Additional observations from a re-analysis of the deposited data

How the results depend on the processing

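No paired analysis was possible because Control and SIGLEC12 have a single replicate number, 4, in common. Each Control mean rests on 2 samples. A fit without a Control sample assumes that the lone Control varies like the SIGLEC12 samples. The signs of Lyz1, Reg4, Retnlb, Mptx1 and Itln1 were kept under all 13 alternatives, with ranges of 0.16 to 4.53 for Lyz1 and 0.20 to 1.25 for Mptx1. Ang4 and Lypd8 kept theirs under 12, and Lcn2, Reg3b and Reg3g under 10. The alternatives that changed only the filter left every member's difference of means as it was, so their agreement was fixed in advance. The median difference of the members ranged from 0.18 to 1.86.

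Members without overlap (4) numbered 0 after rescaling and under quantile normalization, 1 under median-ratio size factors, and 2 relative to columnar epithelium markers. Leaving out one sample gave 4 to 9, with 9 without Control replicate 4 and 7 without SIGLEC12 replicate 4. Leaving out a sample cannot lower this number, and a lone Control makes separation easier for any gene. Shares over all genes are given above only for the deposited and rescaled values, so the other counts are descriptions of the members. Genes past the adjusted threshold (0 and 0) ranged from 0 to 962 higher and from 0 to 97 lower when one sample was left out. Without Control replicate 4 there were 962 and 97, and without SIGLEC12 replicate 4 there was 1 higher. Genes past the unadjusted threshold (410 higher, 46 lower) numbered 38 and 142 after rescaling, 45 and 131 under quantile normalization, and 56 and 124 under median-ratio size factors. There were 1087 higher at a pseudocount of 0.1 and 19 lower at a TPM of at least 5. Leaving out one sample gave 143 to 1366 higher and 51 to 146 lower, with 143 and 119 without Control replicate 1, 1366 and 146 without Control replicate 4, and 75 lower without SIGLEC12 replicate 4. Related genes past it (7 higher, 0 lower) numbered 1 higher after rescaling and 2 under quantile normalization and under median-ratio size factors. Leaving out one sample gave 2 to 20 higher, with 2 without Control replicate 1, 20 without Control replicate 4 and 4 without SIGLEC12 replicate 3. Rescaled and without Control replicate 1, a combination chosen after seeing the data, 27 genes were higher and 223 lower, 1 member did not overlap, and 0 related genes were higher and 1 lower. The cause of these moves was not tested.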
